A study of Mus musculus with 24 samples.

Results

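Alveolar macrophages, the phagocytes of the airspace, and the granulocyte-macrophage colony-stimulating factor (GM-CSF) system that sustains them were followed through 10 genes in whole lungs of C57BL/6 mice. The genes were Csf2, Csf2ra, Csf2rb, Csf1r, Pparg, Marco, Mrc1, Ear2, Fabp1 and Cd68, found by matching the RefSeq transcript of each probe to its gene symbol. A probe was matched for 9 of the 10, and Cd68 has no matched probe and is named only. All 9 were among the 15895 tested genes, of 19722 genes with a usable named probe, and each was well above background on all 24 arrays. Lungs came from mice at postnatal day 1 (n = 5), day 4 (n = 5), day 7 (n = 5), day 14 (n = 5) and day 42 (n = 4), all of the same strain, and the labels name no treatment or mutation. Each sample is a biological replicate of whole lung RNA on 1 single-colour array, and the labels give neither the sex of the mice nor whether animals were pooled.

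In mice, alveolar macrophages arise from fetal monocytes that enter the lung around birth. GM-CSF, made largely by alveolar epithelial cells, signals through a receptor of an alpha and a beta chain and induces the transcription factor PPAR-gamma in them. Together they set up the lipid-handling programme that clears surfactant, and mice without GM-CSF, its receptor or macrophage PPAR-gamma lack mature alveolar macrophages. Interstitial macrophages and monocytes depend instead mainly on the M-CSF receptor, encoded by Csf1r.

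The signal of each probe was expressed as log2 of the processed intensity minus log2 of the 75th percentile of its array, so that 0 marks that percentile. These levels rank samples for 1 gene and cannot be set against those of another gene, since probes differ in their response. Between 50.4% and 79.7% of the spots of an array were well above background. The 79.7% came from day 14 replicate 3, and the next highest share was 64.6%, on day 1 replicate 2. Of the 24 arrays, 5 stood apart on the first principal component, which held 49.8% of the variance over all tested genes. They were replicate 4 of day 42, replicates 1 and 3 of day 4 and replicates 4 and 5 of day 1. Their 75th percentiles were the lowest of the set, at 476.1 to 979.3 intensity units against 995.5 to 1652.7 on the other 19. The main results are therefore given with and without these 5 arrays of low signal. On slides of 8 arrays each, every age lay on each of the 3 slides. Differences within a slide rest on few arrays. For day 42 these were replicate 1 on slide 1, replicates 2 and 3 on slide 2 and replicate 4, of low signal, on slide 3. Day 14 replicate 1 was alone of its age on slide 1, and day 1 replicate 3 on slide 3.

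Across the 5 ages, 7 of the 9 genes differed between any ages (limma, adjusted p under 0.05, with 31.8% of all tested genes called), and Csf2 and Csf1r were the exceptions. Without the 5 arrays Csf1r passed as well and 8 of 9 were called, with 53.9% of all tested genes. At day 42 against day 1, 6 of the 9 were higher and 0 lower, where 13% of all tested genes were called higher. The median of the 9 differences was 0.90 on the log2 scale, against -0.06 over all tested genes. Without the 5 arrays 8 of the 9 were higher at day 42, with 22.6% of all tested genes called higher, and the median was 0.98 against -0.03. The ranges of day 42 and day 1 did not overlap for 3 of the 9 genes, where 16.5% of all tested genes did not overlap, and without the 5 arrays for 8 of 9, where the share of all tested genes was 57.2%. In whole lung RNA, more cells of a type and more RNA per cell cannot be told apart.

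Counts of calls by interval cannot by themselves time the changes, since the share of all tested genes called was lowest within the first week. Of the 5 arrays of low signal, 4 lie at days 1 and 4. Day 4 against day 1 and day 7 against day 4 gave 0 called members each, and of all tested genes only 0.0629% and 0.00629% were called (0.0818% and 0.0503% without the 5 arrays), or 817 and 1348 genes at an unadjusted p under 0.05. Day 7 against day 1 gave 1 member, Fabp1, higher, with 2.71% of all tested genes called, and 0 members without the 5 arrays, with 4.55% called. Day 14 against day 7 gave Ear2 alone, higher, among 11.6% of all tested genes called and 6.04% called higher. Day 42 against day 14 gave Pparg and Csf2ra, both higher, among 3.69% of all tested genes called and 2.18% called higher. Without the 5 arrays these last intervals gave 4 and 5 members, all higher, where 20.5% and 6.73% of all tested genes were called higher and 38.5% and 13.6% in either direction. In either direction, day 42 against day 1 called 26.7% of all tested genes with all arrays and 46.6% without the 5.

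The members whose ranges did not overlap between 2 ages numbered 1 of 9 at day 4 against day 1, where 1.62% of all tested genes did not overlap, 0 at day 7 against day 4 (3.4%) and 1 at day 7 against day 1 (6.3%). They numbered 3 at day 14 against day 7 (16.7%) and 6 at day 42 against day 14 (11.5%). Without the 5 arrays the counts were 1 (17.8%), 0 (5.18%), 2 (12.4%), 3 (16.7%) and 7 (22.6%) in the same order.

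**Figure D1:**
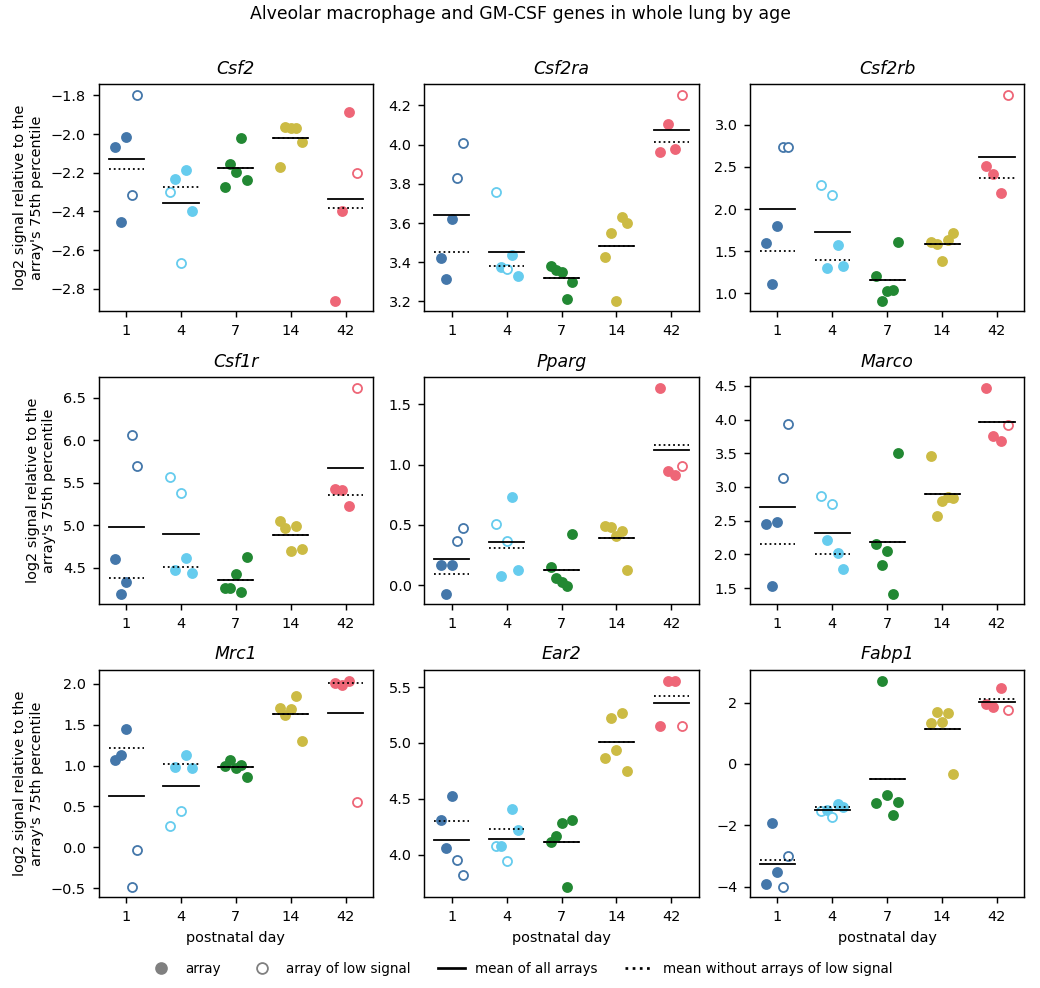
Level of each of the 9 measured genes on every array, as log2 signal relative to the array's 75th percentile, against postnatal day, with each panel on its own scale. Filled points are arrays, hollow points the 5 arrays of low signal, solid bars the mean of all arrays of an age and dotted bars the mean without the hollow ones. The 4 day 42 arrays lie above all others for Pparg, the ages of Csf2 overlap except for days 14 and 4, and hollow points lie high for Csf1r and Csf2rb and low for Mrc1.

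Csf2 encodes GM-CSF itself. Its level overlapped between most ages and spread the most at day 42. It ranged from -2.46 to -1.80 at day 1, -2.67 to -2.19 at day 4, -2.27 to -2.02 at day 7, -2.17 to -1.96 at day 14 and -2.86 to -1.88 at day 42. Day 14 lay just above day 4 with no overlap, all other pairs of ages overlapped, and the spread among the 4 lungs of day 42 (SD 0.41) exceeded any difference of means between 2 consecutive ages. Across the 6 comparisons 0 passed, with or without the 5 arrays. The day 42 minus day 1 difference was -0.21 ± 0.17 (SE, adjusted p = 0.426) and the test for any ages gave adjusted p = 0.348. The Csf2 probe was printed 10 times on each array, with a median coefficient of variation among spots of 5.97% and a median SD among spots of 0.0859 on the log2 scale. With array weights, an alternative fit that counts aberrant arrays less, Csf2 was lower at day 42 than at day 14 (-0.30 ± 0.11, adjusted p = 0.0493).

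The RefSeq promoter window of Csf2 is shown as that of the ligand. It runs from 250 bases before to 50 after the start of the transcript, at chr11:54249850-54250149 on the minus strand of GRCm38.p6. Here and in the windows that follow, capitals mark letters found on either strand for PU.1 (GAGGAA), STAT (TTCNNNGAA), the core of a PPAR site (AGGTCA), C/EBP (TTGCNNAA) or a TATA box (TATAAA). The Csf2 window holds 1 C/EBP match, a motif that 10.8% of all 32851 RefSeq windows hold.
Csf2: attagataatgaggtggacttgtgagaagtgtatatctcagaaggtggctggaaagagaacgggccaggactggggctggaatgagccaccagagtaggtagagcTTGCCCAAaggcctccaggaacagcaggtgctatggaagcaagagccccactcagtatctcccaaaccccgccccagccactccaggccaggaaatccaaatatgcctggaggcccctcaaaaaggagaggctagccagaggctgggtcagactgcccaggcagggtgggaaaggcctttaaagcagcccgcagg

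Csf2ra, the GM-CSF-specific alpha chain of the receptor, was higher at day 42 than at day 14 and than at day 1. Its levels were 3.42, 3.32, 3.62, 3.83 and 4.01 at day 1, the last 2 on arrays of low signal. They were 3.76, 3.37, 3.36, 3.44 and 3.33 at day 4, and 3.38, 3.36, 3.35, 3.21 and 3.30 at day 7. The lungs of the first week thus lay in one band apart from 3 arrays of low signal, at day 1 and day 4. Levels were 3.43, 3.55, 3.20, 3.63 and 3.60 at day 14, and 3.96, 4.11, 3.98 and 4.25 at day 42. All 4 day 42 lungs lay above all 5 day 14 lungs. The day 42 over day 14 ratio was 1.51-fold (0.59 ± 0.15, SE, adjusted p = 0.0276, limma) and 1.45-fold without the 5 arrays (adjusted p = 0.00207). Against day 1 the ratio was 1.35-fold (0.44 ± 0.15, adjusted p = 0.0351), and without the 5 arrays 1.48-fold (adjusted p = 0.000504), when the 2 ages no longer overlapped.

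Both calls for Csf2ra changed when single arrays were left out. That of day 42 against day 14 was lost without day 14 replicate 1 (adjusted p = 0.0594), day 14 replicate 3 (0.0712), day 42 replicate 2 (0.077) or day 42 replicate 4 (0.0854). That of day 42 against day 1 was lost without day 1 replicate 1 (adjusted p = 0.0885), 2 (0.0907) or 3 (0.0529), and without day 42 replicate 2 (0.0814) or 4 (0.0697). With all arrays, that of day 42 against day 14 was also lost with normexp background correction (adjusted p = 0.0615), quantile normalization (0.0649), median scaling (0.0731) and in the authors' deposited table (0.207). That of day 42 against day 1 was lost with median scaling (adjusted p = 0.312) and with no filter on dim probes (0.0534). Within slides 1, 2 and 3 the day 42 minus day 14 difference was 0.53, 0.45 and 0.85. The day 42 minus day 1 difference was 0.34, 0.38 and 0.64. The day 42 array of slide 3 is replicate 4, of low signal. The Csf2ra window (chr19:61228369-61228668, minus strand, GRCm38.p6) is shown since its 2 PU.1 matches stand directly side by side just before the start of the transcript. PU.1 is the myeloid factor that reads such letters, and 28.3% of all windows hold at least 1 match.
Csf2ra: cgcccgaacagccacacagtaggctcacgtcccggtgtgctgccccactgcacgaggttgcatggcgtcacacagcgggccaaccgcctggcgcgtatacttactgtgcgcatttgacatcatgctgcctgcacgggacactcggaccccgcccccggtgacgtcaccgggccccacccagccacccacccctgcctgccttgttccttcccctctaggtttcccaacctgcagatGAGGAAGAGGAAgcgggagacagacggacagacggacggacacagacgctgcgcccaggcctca

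Csf2rb, the beta chain that the receptors for GM-CSF, IL-3 and IL-5 share and that carries the signal into the cell, had its highest mean level at day 42. Its levels were 1.60, 1.11, 1.79, 2.73 and 2.74 at day 1, the last 2 on arrays of low signal. They were 2.29, 1.30, 2.16, 1.57 and 1.33 at day 4, where replicates 1 and 3 are the arrays of low signal, and 1.21, 0.91, 1.03, 1.04 and 1.60 at day 7. Levels at day 14 were 1.61, 1.58, 1.39, 1.63 and 1.71, and at day 42 they were 2.51, 2.41, 2.19 and 3.36, the last on an array of low signal. All 4 day 42 lungs lay above all day 14 lungs, yet the 5 arrays of low signal were each the highest or next to highest of their age. Relative to day 14, day 42 was 2.05-fold (1.03 ± 0.30, adjusted p = 0.0609) with all arrays. It was 1.73-fold (0.79 ± 0.16, adjusted p = 0.00394) without the 5. Relative to day 1 it was 1.54-fold (adjusted p = 0.145) with all arrays and 1.83-fold (0.87 ± 0.18, adjusted p = 0.000758) without the 5.

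The array also held a second Csf2rb probe, which gave 0.76 ± 0.23 for day 42 against day 14 and 0.50 ± 0.23 for day 42 against day 1 (adjusted p = 0.0904 and 0.143 over all probes). Leaving out single arrays moved the call for Csf2rb at day 42 against day 14 past the threshold, with adjusted p = 0.0359, 0.0353 and 0.0461 without day 1 replicates 2, 4 and 5. Without day 1 replicate 4 the day 42 against day 1 difference passed too (adjusted p = 0.0491). Settings with all arrays moved the calls as well. Day 42 against day 14 passed with normexp (adjusted p = 0.00535), quantile normalization (0.00738), the replicate block (0.0493), array weights (8.93e-06) and in the authors' deposited table (0.000697). Day 42 against day 1 passed in the same settings other than the replicate block, with adjusted p of 0.000151 to 0.00757. Day 7 against day 1 was -0.84 ± 0.29 (adjusted p = 0.123), passed with array weights (-0.45 ± 0.14, adjusted p = 0.0448) and in the authors' deposited table (-0.56 ± 0.14, adjusted p = 0.0221), passed without day 1 replicate 2 (-1.06 ± 0.28, adjusted p = 0.0389) and was -0.34 ± 0.16 (adjusted p = 0.255) without the 5 arrays. Csf2rb2, the mouse's IL-3-specific relative of the beta chain, was higher at day 42 than at day 1 by 0.91 ± 0.28 (adjusted p = 0.0182). It is similar in sequence to Csf2rb, and signal of 1 transcript on the other's probe cannot be told apart here.

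Csf1r, the receptor for M-CSF and IL-34 on monocytes and macrophages of all kinds, had levels of 4.60, 4.20, 4.33, 6.06 and 5.70 at day 1. They were 5.57, 4.47, 5.38, 4.62 and 4.44 at day 4, and 4.26, 4.27, 4.43, 4.21 and 4.62 at day 7. All 4 early arrays of low signal read above 5, and the others of days 1, 4 and 7 between 4.20 and 4.62. Levels at day 14 were 5.05, 4.97, 4.70, 4.99 and 4.73, and at day 42 they were 5.43, 5.42, 5.23 and 6.62. With all arrays and the scaling used, 0 of the 6 comparisons passed (day 42 against day 1, 0.70 ± 0.35, adjusted p = 0.155; any ages, 0.0623). Csf1r without the 5 arrays was 1.98-fold higher at day 42 than at day 1 (0.98 ± 0.13, adjusted p = 1.95e-05). It was 1.39-fold higher at day 42 than at day 14 (adjusted p = 0.0151) and 1.44-fold higher at day 14 than at day 7 (adjusted p = 0.000898).

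With all arrays but other processing, the same 3 comparisons of Csf1r passed in 4 settings. At day 42 against day 1 the adjusted p was 1.59e-05 with normexp, 4.02e-05 with quantile normalization, 2.57e-06 with array weights and 7.02e-07 in the authors' deposited table. For Csf1r at day 42 against day 1, leaving out day 1 replicate 4 alone also brought a call (0.97 ± 0.32, adjusted p = 0.0281). Within slides 1, 2 and 3 that difference was 0.10, 0.38 and 2.29, and the third slide holds day 42 replicate 4. The gene had 3 probes. A second one gave 0.65 ± 0.32 for day 42 against day 1, close to the probe used, and the third 0.11 ± 0.25, so the probes of Csf1r did not give 1 size.

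Pparg encodes PPAR-gamma, the factor that GM-CSF induces in alveolar macrophages and that also governs fat cells. It was higher at day 42 than at day 14 and than at day 1. Its levels were 0.17, -0.07, 0.17, 0.36 and 0.47 at day 1, 0.51, 0.08, 0.36, 0.73 and 0.12 at day 4, and 0.15, 0.06, 0.02, -0.0073 and 0.42 at day 7. They were 0.49, 0.48, 0.41, 0.45 and 0.12 at day 14, and 1.64, 0.95, 0.91 and 0.99 at day 42. All 4 day 42 lungs exceeded all 20 younger ones, and 1 of them, replicate 1, stood well above the other 3. The ratio of day 42 to day 14 was 1.66 (0.73 ± 0.18, adjusted p = 0.0195) and 1.71 without the 5 arrays (adjusted p = 0.0077). That of day 42 to day 1 was 1.87 (0.90 ± 0.18, adjusted p = 0.000418) and 2.11 without the 5 arrays (adjusted p = 0.000273). The Pparg probe was printed 10 times on each array, with a median coefficient of variation among spots of 3.36%. Within slides 1, 2 and 3 the day 42 minus day 1 difference of Pparg was 1.37, 0.73 and 0.82.

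Genes of fat cells were high on some of the arrays where Pparg was highest for its age. Of the adipocyte markers, 5 of 7 tested were higher at day 42 than at day 1 and 0 were lower. Among them were Adipoq, an adipocyte hormone, and Cfd, the fat-cell protease adipsin. These were well above background on only 2 and 1 of the 5 day 1 arrays, so the size of their differences rests on signals near background and is not given. The summed signal of all 8 markers, in units of the array's 75th percentile, ranged from 0.751 to 3.87 at day 1, 0.949 to 60.7 at day 4, 0.858 to 8.77 at day 7, 3.01 to 17.5 at day 14 and 14.01 to 312.7 at day 42. The highest sums of days 4, 7 and 42 came from day 4 replicate 4, day 7 replicate 5 and day 42 replicate 1, where Pparg was also the highest of its age. Those of days 1 and 14 did not, since day 1 replicate 2 (3.87) had the lowest Pparg level of its age and day 14 replicate 3 (17.5) the next to lowest. Lep was the 1 adipocyte marker too dim to test. Without day 42 replicate 1, the Pparg difference was 0.56 ± 0.17 for day 42 against day 14 (adjusted p = 0.0929) and 0.73 ± 0.17 for day 42 against day 1 (adjusted p = 0.00318). Without day 14 replicate 5 the day 42 against day 14 difference was 0.67 ± 0.18 (adjusted p = 0.0527). Day 42 replicate 4 had the lowest adipocyte sum of its age and a Pparg level of 0.99, the next to highest. The part of fat cells in the Pparg differences was not tested.

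**Figure D2:**
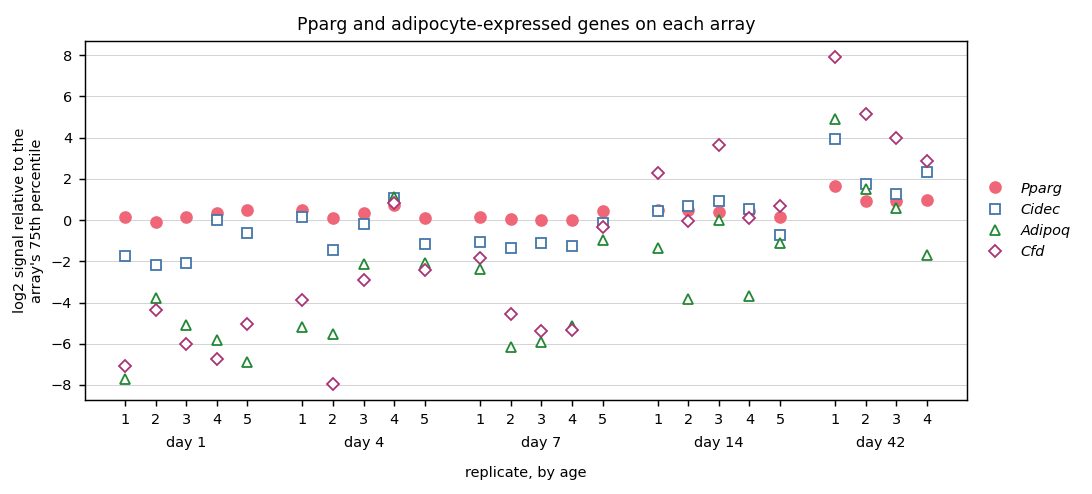
Pparg (filled circles) and 3 genes of fat cells, Cidec, Adipoq and Cfd (hollow), on each of the 24 arrays, as log2 signal relative to the array's 75th percentile, with replicates in order within each age. Day 42 replicate 1 is the highest array for all 4 genes, and day 4 replicate 4 stands out within its age for all 4.

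Marco, a scavenger receptor that binds inhaled particles and bacteria on alveolar macrophages, was higher at day 42 than at day 1. Its levels were 2.45, 1.53, 2.48, 3.13 and 3.93 at day 1, 2.87, 2.21, 2.75, 2.02 and 1.78 at day 4, and 2.15, 1.84, 2.05, 1.42 and 3.50 at day 7. They were 3.46, 2.57, 2.80, 2.85 and 2.84 at day 14, and 4.47, 3.76, 3.68 and 3.91 at day 42. Day 42 lungs lay above all day 14 lungs and overlapped those of day 1 through a single array, day 1 replicate 5, which has low signal. Lungs of day 42 held 2.38-fold the day 1 level (1.25 ± 0.40, adjusted p = 0.0222) and 3.52-fold without the 5 arrays (1.82 ± 0.41, adjusted p = 0.00152). The call was lost without day 1 replicate 2 (0.96 ± 0.38, adjusted p = 0.0666) or without day 42 replicate 1 (1.08 ± 0.44, adjusted p = 0.0832). With median scaling it was lost too (1.19 ± 0.46, adjusted p = 0.0674). From step to step, day 42 over day 14 was 2.08-fold (adjusted p = 0.179) and day 14 over day 7 1.64-fold (adjusted p = 0.278). These 2 steps missed the threshold without the 5 arrays as well, with adjusted p = 0.0614 and 0.084, and passed with array weights (adjusted p = 0.00507 and 0.000344).

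Slides 1, 2 and 3 gave Marco differences of 1.68, 0.99 and 1.43 for day 42 minus day 1. The Marco window (chr1:120504975-120505274, minus strand, GRCm38.p6) holds 1 PU.1 match and is shown as that of a surface receptor.
Marco: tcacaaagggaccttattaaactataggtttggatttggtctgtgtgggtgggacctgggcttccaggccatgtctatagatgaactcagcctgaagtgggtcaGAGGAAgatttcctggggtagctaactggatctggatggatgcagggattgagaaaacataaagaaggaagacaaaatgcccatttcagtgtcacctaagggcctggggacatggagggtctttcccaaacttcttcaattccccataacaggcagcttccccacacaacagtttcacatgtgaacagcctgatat

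Mrc1, the mannose receptor CD206 of alveolar and some interstitial macrophages, was higher at day 42 than at day 1. Its levels were 1.07, 1.13, 1.44, -0.48 and -0.03 at day 1, 0.27, 0.98, 0.44, 1.13 and 0.97 at day 4, and 0.99, 1.07, 0.97, 1.01 and 0.86 at day 7. They were 1.71, 1.62, 1.69, 1.85 and 1.30 at day 14, and 2.01, 1.98, 2.04 and 0.55 at day 42. The 5 arrays of low signal held the 5 lowest values of all 24, the reverse of their place for Csf1r and Csf2rb. On the other arrays Mrc1 lay between 0.86 and 1.44 in the first week, between 1.30 and 1.85 at day 14 and between 1.98 and 2.04 at day 42. The day 42 level was 2.03-fold that of day 1 (1.02 ± 0.34, adjusted p = 0.0284) and 1.73-fold without the 5 arrays (0.79 ± 0.12, adjusted p = 7.27e-05). Day 14 over day 7 was 1.58-fold both ways, with no overlap of the 2 ages, and had adjusted p = 0.225 with all arrays and 0.000103 without the 5. Between days 42 and 14 the ratio was 1.01-fold with all arrays (adjusted p = 0.993) and 1.30-fold without the 5 (adjusted p = 0.0347).

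With all arrays in the fit, the day 42 against day 1 call for Mrc1 rested on several single arrays. It was lost without day 1 replicate 4 (0.74 ± 0.31, adjusted p = 0.0826) or 5 (0.85 ± 0.35, 0.0829), and without day 42 replicate 1 (0.90 ± 0.37, 0.094), 2 (0.91 ± 0.37, 0.0929) or 3 (0.89 ± 0.37, 0.098). In the authors' deposited table the call was lost as well (1.096 ± 0.46, adjusted p = 0.0691). Within slides 1, 2 and 3 the difference was 1.72, 1.46 and -0.90, the last against the direction of the others and on the slide with day 42 replicate 4.

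Ear2, an eosinophil-associated ribonuclease that mouse alveolar macrophages also make, was higher at day 14 than at day 7. Its levels were 4.31, 4.06, 4.53, 3.95 and 3.82 at day 1, 4.08, 4.07, 3.94, 4.41 and 4.22 at day 4, and 4.12, 4.17, 4.28, 3.72 and 4.31 at day 7. They were 4.87, 5.22, 4.94, 5.27 and 4.75 at day 14, and 5.15, 5.56, 5.56 and 5.15 at day 42. All 9 lungs of days 14 and 42 exceeded all 15 lungs of the first week. Day 14 over day 7 was 1.85-fold (0.89 ± 0.17, adjusted p = 0.000808), and 0.65, 1.08 and 0.84 within slides 1, 2 and 3. At day 42 Ear2 stood at 2.33-fold its day 1 level (1.22 ± 0.18, adjusted p = 1.41e-05) and 2.18-fold without the 5 arrays (adjusted p = 9.34e-05). For day 7 over day 1 the ratio was 0.99 (adjusted p = 0.946), and for day 42 over day 14 it was 1.27 (adjusted p = 0.405).

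The Ear genes arose by duplication and are nearly identical in sequence, so the values of Ear2 may hold signal of its relatives. Over the 24 arrays, which share ages, scaling and slides, Ear2 followed Rnase2a (r = 0.99), Ear10 (r = 0.99) and Ear1 (r = 0.98) most closely. Of 3 relatives listed and on the array, Ear1 (1.43 ± 0.19) and Ear10 (1.21 ± 0.17) were higher at day 42 than at day 1, and Ear6 (-0.30 ± 0.16, adjusted p = 0.184) was not. At day 14 against day 7 all 3 relatives, Ear6 among them, were called higher, with a median difference of 0.89. Of all tested genes 6.04% were called higher there. Of the eosinophil markers, 2 of 4 tested were higher at day 42 than at day 1, Siglecf, which alveolar macrophages also carry, and the chemokine receptor Ccr3 (1.05 ± 0.37, adjusted p = 0.0368). Epx, the eosinophil peroxidase, was not well above background on any array, and Prg3, a granule protein, on 1 day 14 and 1 day 42 array. The summed eosinophil signal was 0.594 to 1.03 at day 1, 0.872 to 1.04 at day 4, 0.641 to 1.17 at day 7, 1.205 to 1.84 at day 14 and 2.41 to 2.77 at day 42, in units of the 75th percentile. Most of this sum came from Siglecf at every age, with mean levels of -0.62 at day 1 and 1.12 at day 42. The sum therefore cannot tell eosinophils from alveolar macrophages. The part of eosinophils in the Ear2 differences was not tested. The Ear2 window (chr14:44102404-44102703, plus strand, GRCm38.p6) is shown for the gene called at day 14 against day 7 with all arrays and holds 1 C/EBP match.
Ear2: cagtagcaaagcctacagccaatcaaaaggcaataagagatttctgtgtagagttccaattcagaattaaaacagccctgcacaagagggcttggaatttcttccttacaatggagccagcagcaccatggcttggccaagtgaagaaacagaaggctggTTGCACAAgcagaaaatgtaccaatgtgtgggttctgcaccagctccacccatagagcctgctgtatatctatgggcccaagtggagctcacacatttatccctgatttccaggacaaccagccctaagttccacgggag

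Fabp1, the liver-type fatty acid binding protein, carries fatty acids in the cytosol of hepatocytes and enterocytes and is also made by mouse alveolar macrophages. It spanned the widest range of the 9. Its levels were -3.91, -1.94, -3.51, -4.00 and -3.01 at day 1, -1.54, -1.49, -1.72, -1.30 and -1.40 at day 4, and -1.27, 2.72, -1.02, -1.68 and -1.23 at day 7. They were 1.35, 1.70, 1.37, 1.68 and -0.33 at day 14, and 1.97, 1.86, 2.49 and 1.77 at day 42. Every lung from day 4 on lay above all lungs of day 1, and every lung of days 14 and 42 lay above all lungs of the first week other than day 7 replicate 2. Fabp1 at day 42 was 39.2-fold its day 1 level (5.29 ± 0.64, adjusted p = 1.24e-06), and 37.3-fold without the 5 arrays (adjusted p = 0.000123). Within slides 1, 2 and 3 this difference was 5.92, 4.65 and 5.28.

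Day 7 over day 1 was 6.85-fold for Fabp1 (2.78 ± 0.60, adjusted p = 0.0172). It was 6.15-fold without the 5 arrays (adjusted p = 0.064), and without day 1 replicate 4 alone 6.04-fold (adjusted p = 0.0552). Day 14 over day 7 was 3.14-fold (1.65 ± 0.60, adjusted p = 0.0812). This step passed when either of 2 arrays was left out. Without day 7 replicate 2 the fold was 5.48 (2.45 ± 0.38, adjusted p = 0.000275), and without day 14 replicate 5 it was 4.06 (2.02 ± 0.60, adjusted p = 0.0254). It passed with array weights too (2.16 ± 0.48, adjusted p = 0.000479). The ratio of day 42 to day 14 was 1.82 (adjusted p = 0.624), and all 4 day 42 lungs lay above all 5 of day 14. Within slides 1, 2 and 3 the day 7 minus day 1 difference was 2.70, 5.19 and 2.16 and the day 14 minus day 7 difference 2.60, -1.03 and 1.87, with day 7 replicate 2 on the second slide. Day 4 over day 1 was 3.44-fold with no overlap of the 2 ages (adjusted p = 0.522).

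Genes of the liver stood high on 2 of the arrays where Fabp1 was highest for its age. On day 7 replicate 2 Alb, serum albumin, read 5.19, Serpina1a, an antitrypsin, 5.15 and Ahsg, fetuin A, 6.14, against at most -1.33, -1.84 and -0.71 on the other 4 day 7 arrays. On day 1 replicate 2 they read -0.12, 0.11 and 1.94, each the highest of its age, and Fabp1 was the highest of day 1 there too. Apoa2, an apolipoprotein, was only the next to lowest of day 1 there, at 1.85. The summed signal of all 8 liver markers was 168.8 on day 7 replicate 2 and 3.47 to 5.55 on the others of day 7. It was 3.02 to 11.7 at day 1, where the highest sum came from replicate 4, the array with the lowest Fabp1 level, and replicate 2 had 9.94. Apoa2 was highest of day 1 on replicate 4, at 3.49, and made up most of that sum. By the median log2 level of the 8 markers, replicate 2 was highest at day 1, at -1.24. The other day 1 arrays had medians of -6.39 to -3.30. The summed signal was 4.06 to 8.81 at day 4, 5.12 to 7.88 at day 14 and 4.14 to 10.5 at day 42. The part of liver RNA in the Fabp1 levels was not tested. Of 7 liver markers tested, 0 were called in any of the 6 comparisons, and at day 42 Ttr, Fgb, Apoh and Apoa1 were not well above background on any array. The day 7 SD was 3.56 for Alb, 4.30 for Serpina1a and 4.44 for Ahsg, with day 7 replicate 2 among the arrays. All comparisons share that spread, so such genes could hardly pass and the 0 calls say little about them. Without day 7 replicate 2, Fabp1 was 3.92-fold higher at day 7 than at day 1 (1.97 ± 0.38, adjusted p = 0.0216). Without day 1 replicate 2 and day 7 replicate 2 that fold was 4.94 (adjusted p = 0.00386), day 4 over day 1 was 4.33-fold (2.12 ± 0.32, adjusted p = 0.0103) and day 42 over day 1 was 49.4-fold (adjusted p = 4.29e-09).

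**Figure D3:**
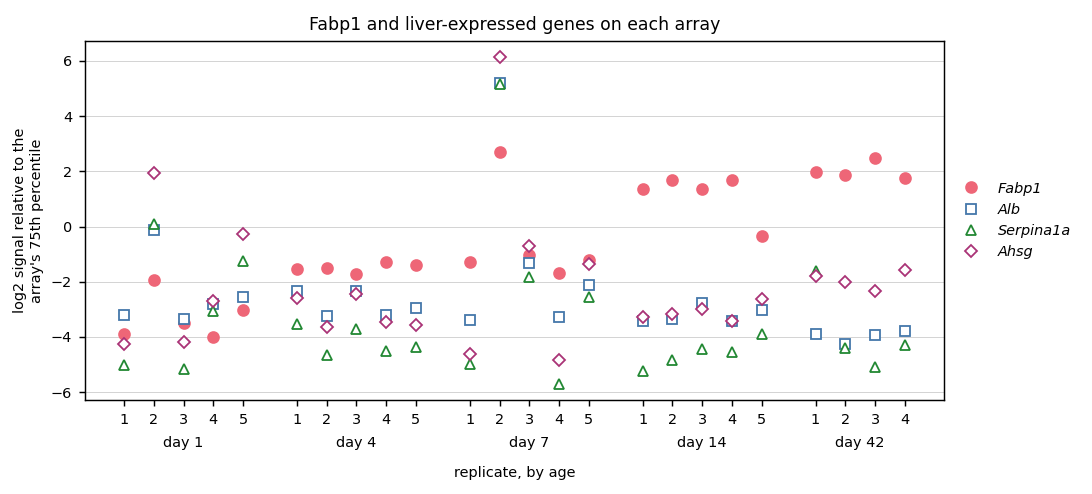
Fabp1 (filled circles) and 3 liver genes, Alb, Serpina1a and Ahsg (hollow), on each of the 24 arrays, as log2 signal relative to the array's 75th percentile, with replicates in order within each age. The liver genes stand highest on day 7 replicate 2, where Fabp1 reads 2.72, and are low at days 14 and 42, where Fabp1 lies between -0.33 and 2.49.

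Fabp1 is shown with its promoter as the gene with the largest change, and since PPAR factors are known to drive it in liver. Its window (chr6:71199629-71199928, plus strand, GRCm38.p6) holds 5 matches that do not overlap, 2 PPAR cores, which read TGACCT on this strand, 1 PU.1, 1 C/EBP and 1 TATA box. Of all RefSeq windows 16.3% hold a PPAR core and 13.6% a TATA box. A match of letters is no evidence of binding.
Fabp1: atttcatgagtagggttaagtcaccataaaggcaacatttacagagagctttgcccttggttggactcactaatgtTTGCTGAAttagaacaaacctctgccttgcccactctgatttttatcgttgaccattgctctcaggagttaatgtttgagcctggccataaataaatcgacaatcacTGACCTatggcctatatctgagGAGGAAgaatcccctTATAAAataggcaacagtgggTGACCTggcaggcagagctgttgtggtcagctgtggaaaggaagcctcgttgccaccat

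The 9 differences are drawn together by comparison. Csf2 is the 1 gene whose day 42 minus day 1 difference lay below 0, in both fits.

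**Figure D4:**
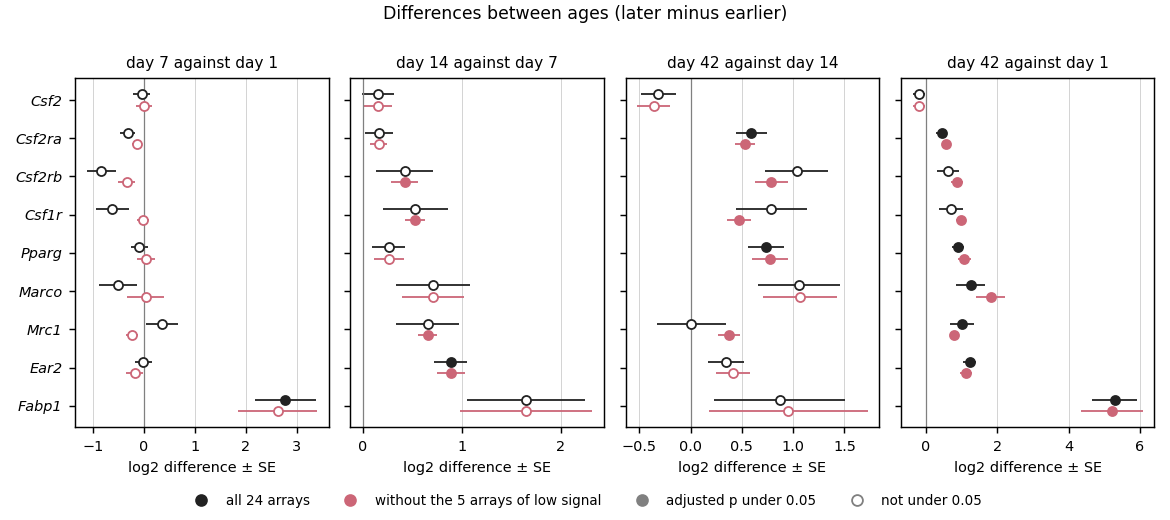
Log2 difference between 2 ages (later minus earlier, ± SE) for each of the 9 genes in 4 comparisons, with all 24 arrays in black and without the 5 arrays of low signal in red, each panel on its own scale. Filled points passed the test at an adjusted p under 0.05. For day 42 against day 1, 6 black and 8 red points are filled, all to the right of 0.

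The list counts that follow stand beside 13% of all tested genes called higher at day 42 than at day 1 (22.6% without the 5 arrays). Of 20 alveolar macrophage genes listed beyond the 9, 12 were higher at day 42 than at day 1 and 0 lower (16 and 0 without the 5 arrays), with a median difference of 1.105 against -0.06 over all tested genes. Chil3, a chitinase-like secreted protein, was higher by 5.77 ± 0.36 (adjusted p = 7.07e-10) and already by 4.02 at day 14 against day 7 (adjusted p = 9.95e-07). Cidec, a lipid droplet protein of fat cells and macrophages, was higher by 3.66 ± 0.55, Spp1, the matrix protein osteopontin, by 3.14 ± 0.51 and Krt79, a keratin used as a marker of mouse alveolar macrophages, by 2.92 ± 0.37. Siglecf, the sialic acid lectin used to gate these cells, was higher by 1.73 ± 0.21 (adjusted p = 1.42e-06). The summed level of the list was 78.7 to 155.2 at day 1, 74.8 to 128.2 at day 4 and 69.0 to 108.7 at day 7. It was 180.9 to 203.8 at day 14 and 267.7 to 357.9 at day 42. Chil3 weighs heavily in it, with mean levels of 2.34 at day 7 and 6.36 at day 14. The median level of the list was 0.22 to 0.91 at day 1, 0.05 to 0.70 at day 4 and 0.16 to 0.87 at day 7. It was 0.99 to 1.30 at day 14 and 1.81 to 2.37 at day 42. Day 1 sums of 155.2 and 135.9 came from arrays of low signal. The highest sums of days 4, 7 and 42 came from the arrays with the highest adipocyte sums. Day 7 against day 1 gave 0 of 20 in either direction, where only 2.71% of all tested genes were called. Day 14 against day 7 gave 5 higher (15 without the 5 arrays). Of all tested genes 6.04% were called higher there (20.5% without the 5 arrays).

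Of 17 genes of the GM-CSF receptor family and its signalling, 2 were higher at day 42 than at day 1 and 0 lower, Csf2rb2 and Bhlhe40, a factor for macrophage proliferation (0.76 ± 0.25, adjusted p = 0.0266). Without the 5 arrays 8 were higher and 1 lower. Among the 8, and chosen after their values were seen, were Stat5a (0.75, adjusted p = 7.12e-05) and Jak2 (0.79, adjusted p = 0.000266), which relay the receptor's signal, and the 1 lower gene was Bach2 (-0.71, adjusted p = 0.0118), a repressor of transcription. In the M-CSF axis 1 of 7 was higher, Csf1, the M-CSF gene (0.69 ± 0.25, adjusted p = 0.0463), and 1 lower, Maf, a factor that restrains macrophage self-renewal (-1.25 ± 0.37, adjusted p = 0.0133). With the 5 arrays left out 5 were higher and 1 lower. Among 12 genes of PPAR-gamma targets and lipid handling 3 were higher, Cd36, a lipid scavenger receptor (2.03 ± 0.47), Cidec and Abca1, a cholesterol exporter (0.99 ± 0.37), and 0 lower, and 6 and 0 with those arrays left out. The median differences of these 3 lists were 0.41, 0.50 and 0.60 with all arrays, against -0.06 over all tested genes.

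Genes of macrophages and monocytes in general were listed too. Of 13 general macrophage genes 8 were higher at day 42 than at day 1 and 0 lower, among them Lyz2, lysozyme (1.38 ± 0.29), and Mpeg1, perforin-2 (1.17 ± 0.19), and 10 were without the 5 arrays. Of 11 interstitial macrophage genes tested 2 were higher, Folr2, a folate receptor (2.36 ± 0.44), and Apoe (1.18 ± 0.37), and 0 lower, with 7 and 0 without the 5 arrays. Of 9 monocyte genes 5 were higher and 1 was lower, the matrix gene Vcan, by -3.76 ± 0.47 (6 and 1 without the 5 arrays). Of 9 scavenger receptors 3 were higher and of 14 lysosome genes 2, with 0 lower in both, and without the 5 arrays 5 and 9.

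Markers of other cell types in the same lungs were tested over day 42 against day 1 too. Dendritic cell markers had 4 of 6 higher and lymphoid markers 7 of 9, with 0 lower in both (5 and 9 higher without the 5 arrays). Neutrophil markers had 1 of 8 higher and 2 lower, and alveolar type 2 markers 0 of 8 in either direction (5 higher without the 5 arrays). All 5 proliferation markers were lower. The lung markers Sftpc, Scgb1a1, Ager, Aqp5, Cdh5 and Foxj1 were all tested, and 1 of these 6, Scgb1a1, was higher, and 5 were without the 5 arrays. Of 6 cardiac muscle markers 0 were called, with or without the 5 arrays, and of 2 intestine markers tested 0 (1 lower without them).

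**Figure D5:**
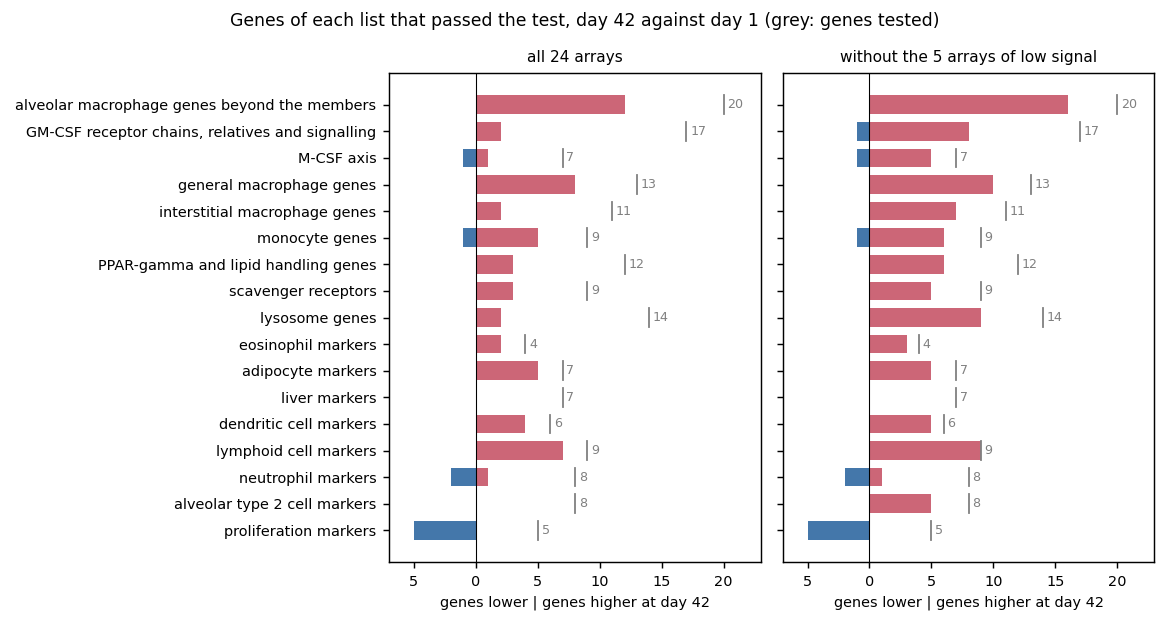
Number of genes of each list that passed the test at day 42 against day 1, higher to the right in red and lower to the left in blue, with all 24 arrays in the left panel and without the 5 arrays of low signal in the right panel. Grey ticks and numbers give the genes tested. The list of alveolar macrophage genes reaches 12 of 20 on the left and 16 of 20 on the right, and liver markers reach 0 of 7 in both. Both fits hold day 7 replicate 2, which widens the spread of several liver markers.

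The genes whose patterns were most like those of the members over the 24 arrays were read as a description, since all arrays share ages, slides and scaling. Mrc1 lay closest to Cd86 (r = 0.98), a costimulatory ligand, Csf2rb to Myo1f (r = 0.97), a leukocyte myosin, and Csf2ra to Cd300lf (r = 0.93), an inhibitory receptor of myeloid cells. Csf1r lay closest to AI413582, Sema4d and Dedd2 (r = 0.99 each), Marco to Acp5 (r = 0.90), Ryr1 (r = 0.90) and Ccl6 (r = 0.90), and Pparg to Cidec (r = 0.95). Fabp1 lay closest to Cst11 (r = 0.94), a cystatin well above background on 8 of the 24 arrays. Among the members themselves Csf2rb and Csf1r were closest (r = 0.95, and 0.87 without the 5 arrays). Mrc1 and Csf1r gave r = -0.33 with all arrays and 0.86 without the 5.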

How the data were processed

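Whole lung RNA of 24 samples of 5 ages was hybridised to single-colour Agilent arrays, 1 per biological replicate. The authors deposited scanner files whose processed intensity was background-subtracted and detrended within each array by Agilent's scanner software, which the file headers give as Feature Extraction 10.7.3.1 and the submitters' processing notes as 10.7.1.1. The authors also deposited a table of log2 values, whose normalization is not given in the sources used here. Its columns had medians of 5.663 to 6.264. They correlated with the log2 processed intensity at r of 0.9862 to 1.0, lowest on day 14 replicate 3. With centring unknown, the table served as an alternative.

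Log2 processed intensity minus that of the array's 75th percentile was used, without control and non-uniform spots. Repeated spots were averaged per probe, and names came through RefSeq accessions. The probe with the highest mean stood for a gene, tested if well above background on at least 4 arrays. limma 3.58.1 in R 4.3.3 fitted 1 mean per age over all 24 arrays, with Benjamini-Hochberg adjustment over all tested genes per comparison and a threshold of 0.05. The fit was tested on simulated data. All members are named, and further names come from the 3 genes most like each over the arrays and up to 4 called genes per list, some of which are not reported here, with exceptions stated. The members and gene lists were chosen with earlier results of these data known. Alternatives were another background correction (normexp, offset 50, on the median signal, since the scans give no mean signal), scaling, filters, probe choice, slide and replicate blocks, array weights and leaving out arrays. The number of arrays limits the precision. Promoter windows come from RefSeq (GRCm38.p6), with none shown for Csf1r or Csf2rb.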

Additional observations from a re-analysis of the deposited data

Results flagged for a closer look

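In 45 groups of 1 gene at 1 age, 7 held an array far from the others of its age, where chance gives about 1 in 20. Mrc1 read 0.5478 on day 42 replicate 4, with the nearest day 42 array at 1.9807, and Csf1r read 6.6208 on the same array, with the nearest at 5.4338. That array is among the 5 of low signal, as is day 4 replicate 1, on which Csf2ra read 3.7603 with the nearest at 3.4376. Fabp1 read 2.7152 on day 7 replicate 2, with the nearest at -1.0201, on the array with a summed liver signal of 168.8. Day 14 replicate 5 was lowest of its age for Fabp1, at -0.327 with the nearest at 1.3457, and for Pparg, at 0.1249 with the nearest at 0.4053. Over all tested genes it also lay apart on the second principal component, which held 27.89% of the variance. It read -0.0359 there, the other day 14 arrays 0.1686 to 0.2019 and the day 7 arrays -0.2033 to -0.1089. Why it lay between the 2 ages was not tested. Pparg read 1.6378 on day 42 replicate 1, with the nearest at 0.9885, on the array with a summed adipocyte signal of 312.7. The part of low signal, liver and fat in these values was not tested.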

How the results depend on the processing

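Of the 10 calls of a member in a pairwise comparison, 4 held in all 10 planned settings and without each of the 24 arrays in turn (Ear2 at day 14 against day 7, and Fabp1, Ear2 and Pparg at day 42 against day 1), and 0 of the 54 member comparisons reversed a call. With the replicate block the 9 members gave 0, 0, 1, 3, 1 and 6 calls for day 4 against day 1, day 7 against day 4, day 14 against day 7, day 42 against day 14, day 7 against day 1 and day 42 against day 1. The numbers were not taken to pair the samples. Of 46 same-number pairs 16 correlated above 0.1, with a median r of -0.0099 against 0.0193 for other pairs. The r ran from -0.8492 to 0.8789 for same-number pairs and from -0.8966 to 0.9127 for others. With so wide a spread a modest pairing could not be seen. For day 14 against day 7 (1 call), normexp and quantile normalization gave 2 each, 3 were called in the authors' table, 8 with array weights, and leaving out the 5 arrays of low signal gave 4, those and day 14 replicate 5 together 5, and day 1 replicate 2 with day 7 replicate 2 together 2. For day 42 against day 14 (2 calls), median scaling gave 1, array weights 8, and leaving out the 5 arrays, or these and day 14 replicate 5, 5 each. Calls over all tested genes changed too. At day 14 against day 7, 1840 of 15895 were called in the main fit and 6125 without the 5 arrays. Leaving out day 14 replicate 5 as well gave 7103. At day 42 against day 14 these counts were 587, 2154 and 2261. At day 14 against day 7, 1377 were higher and 1365 lower with normexp, and 1803 and 1758 in the authors' table. All-gene counts with array weights are not reported here. For day 7 against day 1 (1 call), the authors' table and array weights gave 2 each and leaving out the 5 arrays 0. Array weights gave 1 for day 7 against day 4, and leaving out day 1 replicate 2 with day 7 replicate 2 gave 1 for day 4 against day 1. Day 42 against day 1 (6 calls) gave 4 with median scaling to 8 with array weights. Single arrays left out in turn gave 1 to 2 calls for day 14 against day 7, 1 to 3 for day 42 against day 14, 0 to 2 for day 7 against day 1, 4 to 7 for day 42 against day 1 and 6 to 8 for any ages. Median scaling moved the median of all genes by -0.173 at day 14 against day 7, where calls split 434 higher and 871 lower against 960 and 880, and by 0.21 at day 42 against day 14, where they split 355 and 109 against 347 and 240 (756 and 328 with normexp). The settings that leave out several arrays were chosen after seeing the data, and the causes of these changes were not tested.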
